A study of Mus musculus with 48 samples.

Results

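The regulators of the integrated stress response, 10 genes, were followed in murine striatal progenitor cells treated with 14 compounds studied as protective against mutant huntingtin. The genes, Atf4, Atf3, Atf5, Ddit3, Trib3, Chac1, Ppp1r15a, Cebpb, Sesn2 and Ifrd1, were chosen by name, and all 10 were found among the 18178 genes with a symbol and among the 13409 of these that were tested. The 2 conditionally immortalized knock-in lines are each a single line, STHdhQ7 with the wild type huntingtin gene and STHdhQ111 homozygous for the mutant gene. Every condition was sampled 3 times, after 24 hours in serum-free medium, which gave 48 samples in 16 conditions. STHdhQ111 cells received vehicle (the control of the comparisons with vehicle) or a compound, and STHdhQ7 cells received vehicle only.

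The doses differed widely. Meclizine (an antihistamine), cyproheptadine (an antihistamine and serotonin antagonist), loxapine (an antipsychotic), selisistat (a sirtuin inhibitor) and diacylglycerol kinase inhibitor II (DKI) were given at 10 µM. Pizotifen, a serotonin antagonist with a tricyclic structure close to that of cyproheptadine, was given at 5 µM. The histone deacetylase inhibitors sodium butyrate and trichostatin A were given at 1 mM and 10 nM, the vitamin antagonist 4-deoxypyridoxine (DOP) at 4 mM, and cysteamine at 250 µM. Fingolimod phosphate, a sphingosine phosphate receptor agonist, was given at 250 nM, nortriptyline at 1 nM, and nicotinamide and haloperidol at 0.5 nM each.

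A small set of kinases phosphorylates the initiation factor eIF2 when amino acids, protein folding in the endoplasmic reticulum, viral RNA or heme call for it. General translation then falls while the mRNA of ATF4, whose leader holds upstream reading frames, is translated better. ATF4, a basic leucine zipper (bZIP) factor, raises the transcription of amino acid enzymes and transporters and of further regulators, among them CHOP (the product of Ddit3), ATF3 and TRIB3. GADD34, the product of Ppp1r15a, brings a phosphatase to eIF2 and ends the response. The values below are RNA levels, so they hold no measure of eIF2 phosphorylation or of ATF4 protein.

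To show the sequence in front of the genes, the stretch of 250 bases before the RefSeq start of 3 members is printed, 5′ to 3′ on the strand of the gene (RefSeq, GRCm38.p6). These are the members whose stretch holds a full match to a searched motif. Capitals mark the matches. Atf3 is read from chr1:191183334-191183583 (minus strand), Chac1 from chr2:119350992-119351241 (plus strand) and Ppp1r15a from chr7:45526269-45526518 (minus strand).
Atf3: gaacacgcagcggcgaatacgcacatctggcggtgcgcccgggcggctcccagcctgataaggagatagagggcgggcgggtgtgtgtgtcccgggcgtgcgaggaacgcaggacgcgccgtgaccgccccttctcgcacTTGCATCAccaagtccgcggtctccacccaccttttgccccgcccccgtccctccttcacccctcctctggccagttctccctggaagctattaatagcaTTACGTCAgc
Chac1: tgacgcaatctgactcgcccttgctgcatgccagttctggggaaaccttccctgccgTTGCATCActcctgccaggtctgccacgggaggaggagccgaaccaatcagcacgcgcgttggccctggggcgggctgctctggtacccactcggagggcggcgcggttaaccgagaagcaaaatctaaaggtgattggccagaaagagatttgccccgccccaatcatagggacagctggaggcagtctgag
Ppp1r15a: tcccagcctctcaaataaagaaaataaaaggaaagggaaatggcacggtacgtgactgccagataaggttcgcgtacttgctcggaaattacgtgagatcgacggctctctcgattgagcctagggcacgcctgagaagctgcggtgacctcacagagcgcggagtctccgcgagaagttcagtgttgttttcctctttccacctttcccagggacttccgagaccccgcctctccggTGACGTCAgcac

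The search covered both strands of the window from 250 bases before to 50 after the start, and all 10 members had such a window in the table. TGATGCAA, the composite letters that ATF4 and C/EBP factors are known to bind together, stood at position -110 of Atf3 and -193 of Chac1, both times on the opposite strand and hence printed as TTGCATCA. Of the 32851 windows in the table, 0.895% held it. With any letter in its sixth place (TGATGNAA), which contains the former motif, 3.97% of windows matched, and Trib3 joined with a match at position 15. The palindromic cyclic AMP element TGACGTCA stood at -12 of Ppp1r15a and in 1.79% of windows. The related TGACGTAA stood at -10 of Atf3, again on the opposite strand, and in 0.499% of windows.

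Each value is a normalized abundance on a log2 scale, as deposited, so that a difference of 1 is a 2-fold difference. The values are not per length, and levels are therefore compared between conditions and never between genes. A difference was called when its adjusted p-value from limma, corrected over all 13409 genes, was under 0.05. Replicates are separate samples by their labels, which do not say whether they came from separate cultures, so p-values measure the spread between these samples. Correlations between replicates across genes were 0.9964 to 0.9994. Sequencing depth is unknown, since the values are not counts. Of the progenitor markers, Vim (14.79 to 15.70 over all samples) and Sox9 (7.66 to 9.80) were high. Nes differed between the lines, with 9.93, 11.27 and 11.66 as the lowest, median and highest in STHdhQ7 and 4.46, 5.05 and 7.14 in STHdhQ111, and Sox2 did so too (medians 8.99 and 4.82). Col1a1, a collagen of mesenchymal cells, lay at 13.63 to 15.14, while Drd1, a striatal neuron marker, lay at -2.18 to -2.17, near the floor of the table. Other cell type lists were mixed. Foxp1, also a striatal neuron marker, was high (8.90 to 10.22), as were Pecam1 of endothelial cells (7.44 to 9.50), Tmem119 of microglia (6.59 to 8.82) and Slc1a3 of astrocytes (5.88 to 7.80), whereas the microglial Aif1 (at most -2.17) and the astrocytic Gfap (at most -0.87) were low.

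All 10 regulators rose against vehicle in each of 5 compounds: DKI, meclizine, cyproheptadine, pizotifen and loxapine. Over the 10 genes the median log2 difference was 1.64 in DKI, 1.23 in meclizine, 1.16 in cyproheptadine, 0.86 in pizotifen and 0.72 in loxapine, where the median of all genes tested lay between -0.01 and 0.00. The share of all genes called higher was 20.4% in DKI, 13.1% in meclizine, 17.5% in cyproheptadine, 8.86% in pizotifen and 10.1% in loxapine. In either direction it was 42.3%, 26.8%, 35.6%, 17.9% and 21.9% in the same order. In all 5 compounds the 3 samples of each gene lay above the 3 vehicle samples. The share of all genes without such overlap was not computed. In each compound where no member was called, some members were also apart from vehicle, in either direction. There were 4 in cysteamine, 3 each in DOP, selisistat and nicotinamide, 2 in fingolimod phosphate, and 1 each in nortriptyline and haloperidol. The smallest rise in the 5 compounds was that of Sesn2 in loxapine (0.29) and the largest that of Trib3 in DKI (3.00, an 8.01-fold difference). Since all 5 comparisons share the vehicle samples, they are not independent of each other.

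**Figure D1:**
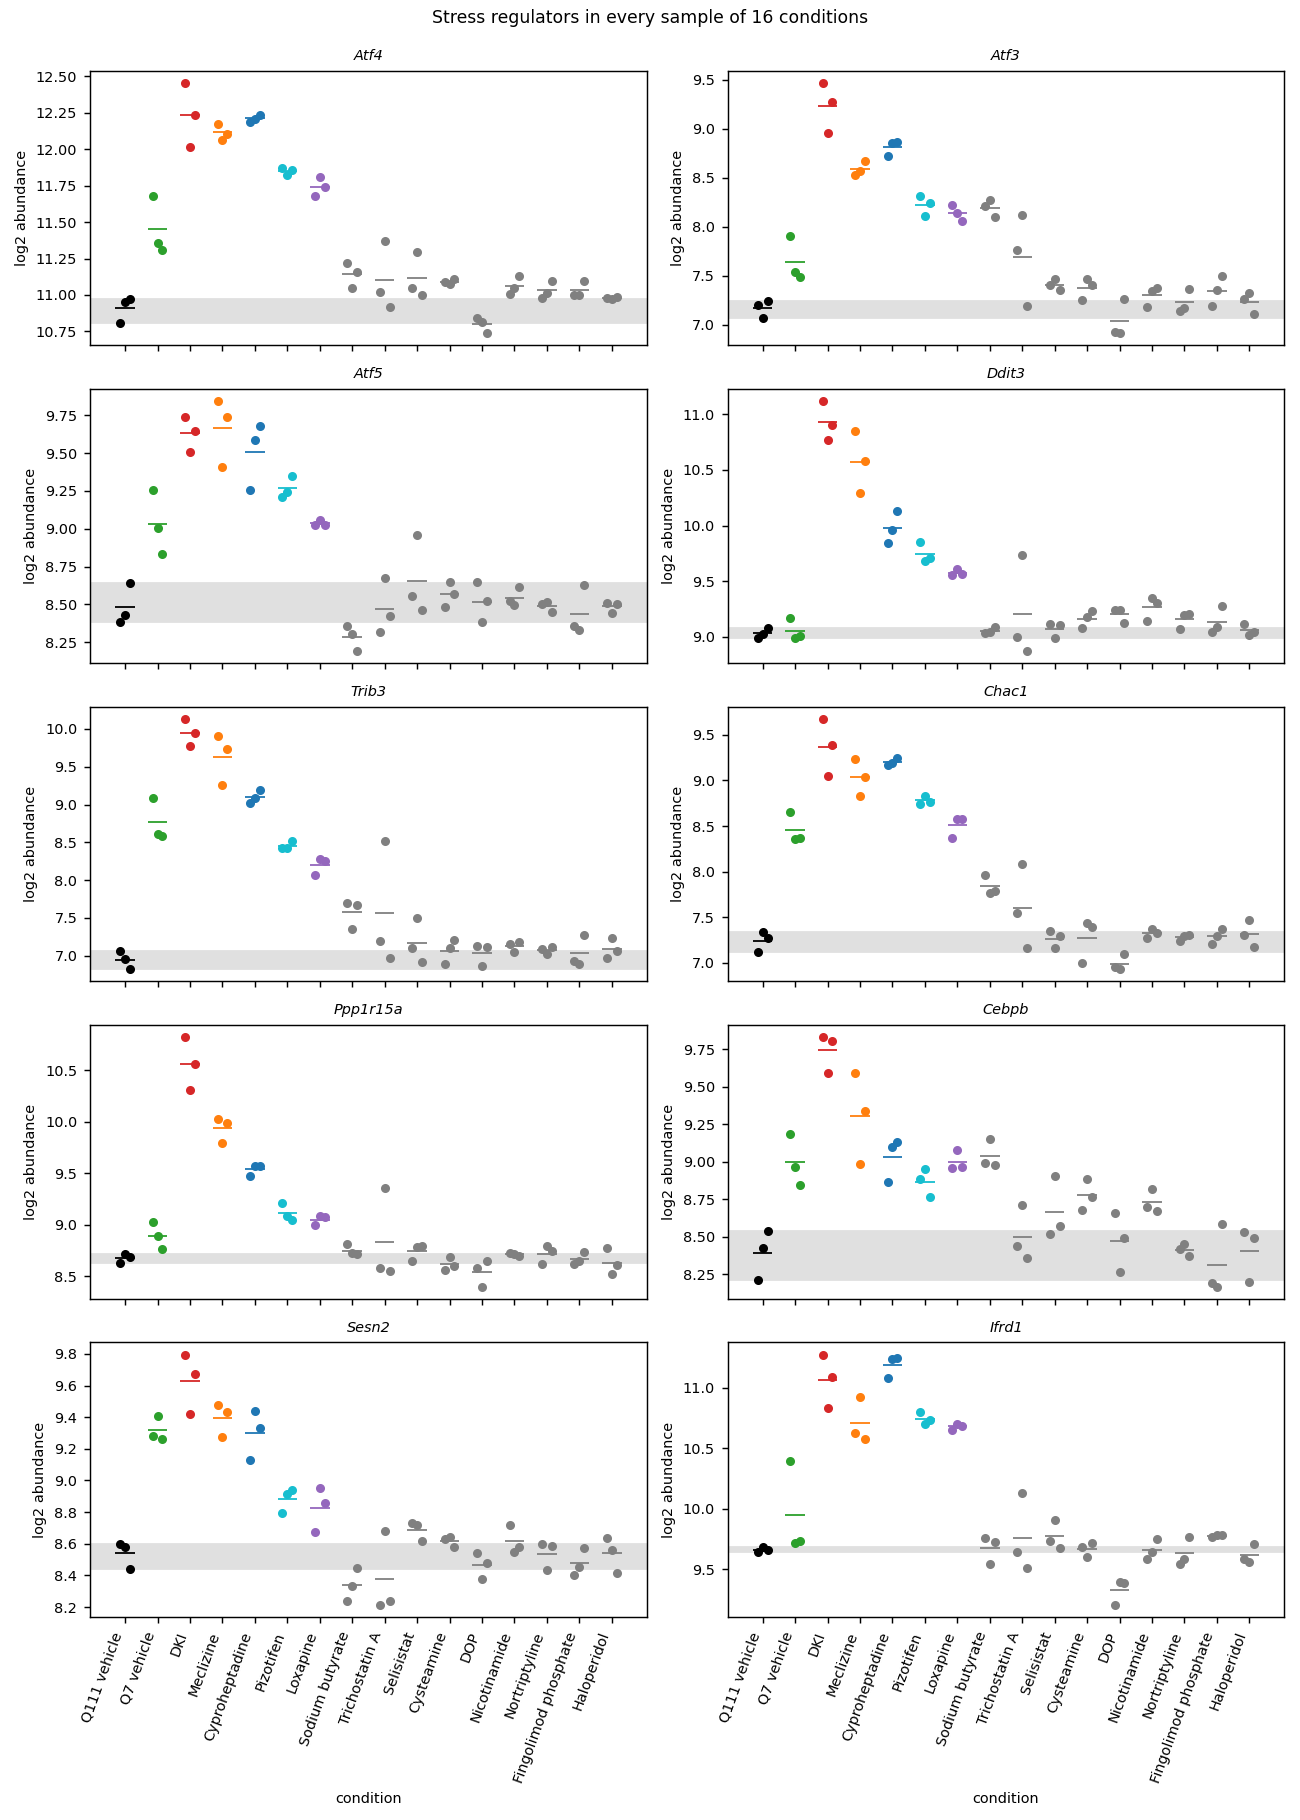
Log2 abundance of each of the 10 genes in all 48 samples, with 1 panel per gene, 1 point per sample and a bar for the mean of 3 samples. The grey band spans the 3 vehicle samples of STHdhQ111 cells, and the points of DKI, meclizine, cyproheptadine, pizotifen and loxapine lie above it in every panel.

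Atf4, the factor at the head of the transcriptional response (chr15:80255184-80257541, plus strand, GRCm38, GENCODE), stood at 10.81, 10.95 and 10.97 in the 3 vehicle samples. It reached 12.45, 12.02 and 12.23 in DKI, 12.19, 12.21 and 12.24 in cyproheptadine, and 12.18, 12.07 and 12.11 in meclizine. The samples of these 3 compounds formed the top of the order, DKI overlapping both others and cyproheptadine just above meclizine. Below them came pizotifen (11.87, 11.82 and 11.86) and loxapine (11.68, 11.81 and 11.74), with no overlap between any of them and meclizine. The differences from vehicle were 1.32 ± 0.09 (SE) in DKI, 1.30 ± 0.09 in cyproheptadine, 1.20 ± 0.09 in meclizine, 0.94 ± 0.09 in pizotifen and 0.83 ± 0.09 in loxapine. The largest adjusted p-value among them was 5.7e-08. No other gene is annotated over Atf4.

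Atf5, a relative of ATF4 whose mRNA also carries upstream reading frames, stood at 8.39, 8.43 and 8.64 in vehicle. In meclizine it was at 9.84, 9.41 and 9.74, in DKI at 9.74, 9.51 and 9.64, and in cyproheptadine at 9.25, 9.58 and 9.68. These 3 compounds overlapped each other, and Atf5 was the only member whose mean was highest in meclizine. Its rises were 1.18 ± 0.12, 1.14 ± 0.12 and 1.02 ± 0.12 (SE), followed by 0.78 in pizotifen and 0.55 in loxapine. Nup62 and Il4i1 are annotated over parts of Atf5 (chr7:44812256-44816658, minus strand) on the opposite strand. The library kit marks strand, but whether the counting used it is not given in the sources used here, and the same holds for Ddit3, Ppp1r15a, Cebpb and Atf3 below. Ifrd1 is under the same limit, with the antisense gene Gm7008 on its opposite strand, and Sesn2 and Ifrd1 are also overlapped by small annotations on their own strand.

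Atf3, an early stress-induced bZIP factor, stood at 7.20, 7.06 and 7.24 in vehicle. DKI brought it to 9.47, 8.95 and 9.27, cyproheptadine to 8.72, 8.86 and 8.87, and meclizine to 8.53, 8.57 and 8.68. The 3 ranges did not overlap, in the order DKI, cyproheptadine, meclizine. The differences from vehicle were 2.06, 1.65 and 1.42, each ± 0.14 (SE), and 1.05 in pizotifen and 0.97 in loxapine. Atf3 and Trib3 were called in 7 of 14 compounds each, more than any other member.

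Ddit3 encodes CHOP, a C/EBP relative that raises genes of cell death and of renewed protein synthesis when stress lasts (chr10:127290774-127296288, plus strand, with Mars on the opposite strand over part of it). In vehicle it stood at 8.99, 9.03 and 9.08. It was at 11.12, 10.77 and 10.90 in DKI and at 10.85, 10.29 and 10.58 in meclizine. Both of these sets lay above all samples of cyproheptadine (9.85, 9.96 and 10.13), of pizotifen (9.85, 9.69 and 9.71) and of loxapine (9.55, 9.61 and 9.56). The rises were 1.90 ± 0.13 in DKI, 1.54 ± 0.12 in meclizine, 0.95 ± 0.13 in cyproheptadine, 0.72 ± 0.12 in pizotifen and 0.55 ± 0.12 in loxapine (SE). In folds they ran from 3.72 in DKI to 1.46 in loxapine.

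Cebpb encodes C/EBPβ, a partner with which ATF4 and CHOP form dimers. It stood at 8.21, 8.42 and 8.54 in vehicle, at 9.83, 9.59 and 9.81 in DKI, and at 9.59, 8.99 and 9.34 in meclizine. All DKI samples lay above those of every other condition, if only just above the highest meclizine sample, while meclizine overlapped cyproheptadine (8.87, 9.10 and 9.13). The rise was 1.36 ± 0.13 (SE) in DKI, 0.91 in meclizine, 0.65 in cyproheptadine, 0.61 in loxapine and 0.48 in pizotifen. The weakest of these, in pizotifen, had an adjusted p-value of 0.0072, which became 0.082 without vehicle replicate 1.

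Trib3, a pseudokinase that ATF4 and CHOP induce and that restrains both, moved the most of the 10 genes. From 7.06, 6.96 and 6.83 in vehicle it went to 10.13, 9.77 and 9.95 in DKI, 9.91, 9.25 and 9.74 in meclizine, and 9.02, 9.08 and 9.19 in cyproheptadine. DKI and meclizine overlapped, and neither overlapped cyproheptadine. The folds were 8.01 in DKI, 6.42 in meclizine, 4.44 in cyproheptadine, 2.84 in pizotifen and 2.38 in loxapine. Trib3 also had the widest spread between replicates of the 10 genes, with a residual SD of 0.28 against 0.12 for Atf4.

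Ppp1r15a encodes GADD34, the inducible subunit that directs protein phosphatase to eIF2. It stood at 8.63, 8.72 and 8.69 in vehicle. DKI samples lay at 10.82, 10.31 and 10.56, meclizine samples at 10.03, 9.79 and 9.98, and cyproheptadine samples at 9.48, 9.57 and 9.57. No samples of these 3 compounds overlapped. The log2 differences were 1.89 ± 0.12, 1.26 ± 0.12 and 0.86 ± 0.12 (SE), against 0.43 in pizotifen and 0.37 in loxapine. The rise in loxapine, with an adjusted p-value of 0.023, was not called without vehicle replicate 1 (adjusted p = 0.089), without loxapine replicate 2 (adjusted p = 0.078) or without loxapine replicate 3 (adjusted p = 0.069). That in pizotifen, with an adjusted p-value of 0.0095, was not called without pizotifen replicate 1 (adjusted p = 0.061).

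Chac1, an enzyme that breaks down glutathione, stood at 7.12, 7.34 and 7.27 in vehicle. It was at 9.67, 9.05 and 9.39 in DKI, at 9.17, 9.19 and 9.25 in cyproheptadine and at 9.24, 8.83 and 9.04 in meclizine. All 3 overlapped. Its rises were 2.12, 1.95 and 1.79 in the same order, 1.54 in pizotifen and 1.27 in loxapine, with SEs of 0.14 throughout. In pizotifen and loxapine Chac1 had the largest rise of the 10, just ahead of Trib3.

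Sesn2 encodes sestrin 2, a leucine-binding protein that holds back the growth kinase mTORC1. It stood at 8.60, 8.58 and 8.44 in vehicle, at 9.79, 9.42 and 9.67 in DKI, at 9.48, 9.28 and 9.44 in meclizine and at 9.13, 9.44 and 9.33 in cyproheptadine. Cyproheptadine overlapped both others. The rises were among the smaller ones, 1.09 in DKI, 0.86 in meclizine, 0.76 in cyproheptadine, 0.34 in pizotifen and 0.29 in loxapine. The call in loxapine (adjusted p = 0.028) was lost without loxapine replicate 2 or 3 and without vehicle replicate 2 or 3, with adjusted p-values of 0.16, 0.091, 0.051 and 0.12. The call in pizotifen (adjusted p = 0.011) was lost without vehicle replicate 3 (adjusted p = 0.06) and without pizotifen replicate 3 (adjusted p = 0.056).

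Ifrd1, a transcriptional coregulator, was ordered in another way. It stood at 9.65, 9.69 and 9.66 in vehicle. Cyproheptadine gave 11.08, 11.24 and 11.25, DKI 11.27, 10.84 and 11.09, meclizine 10.63, 10.93 and 10.58, pizotifen 10.80, 10.70 and 10.74, and loxapine 10.66, 10.70 and 10.69. The means were highest in cyproheptadine, which overlapped DKI, and those of meclizine, pizotifen and loxapine lay close together, from 10.68 to 10.75. The rises were 1.52 in cyproheptadine, 1.40 in DKI, 1.08 in pizotifen, 1.05 in meclizine and 1.02 in loxapine, each ± 0.13 (SE).

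**Figure D2:**
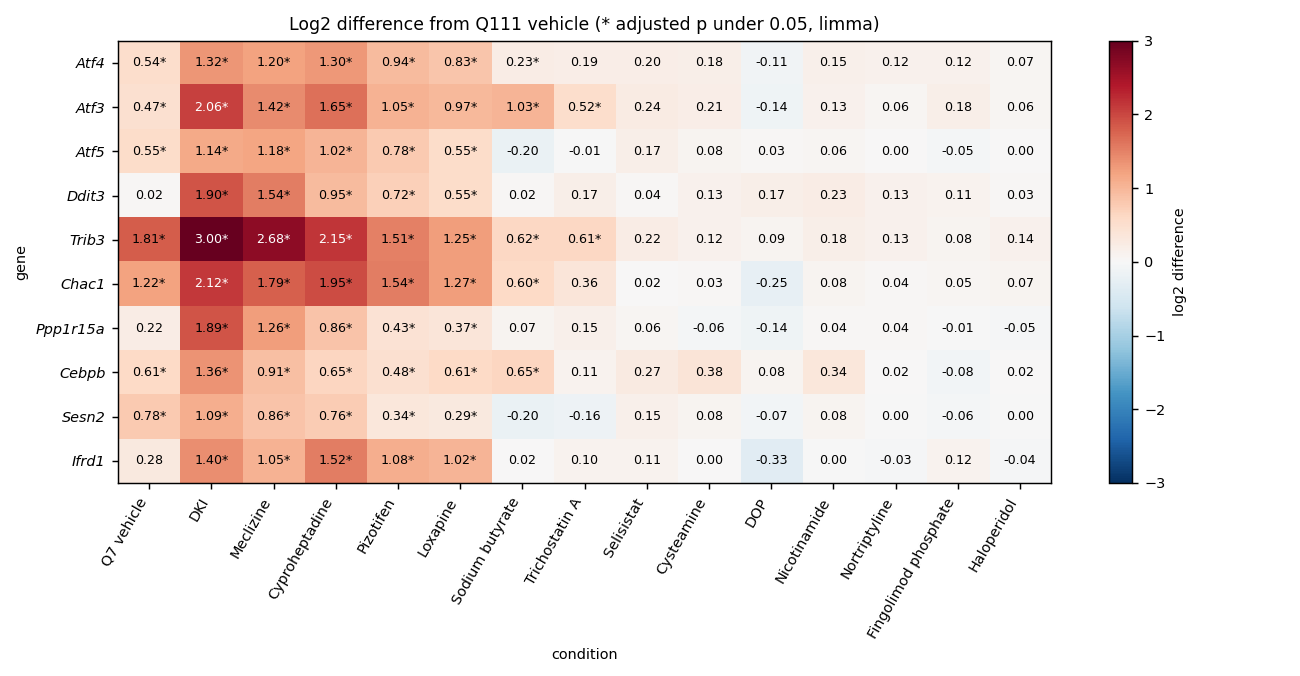
Log2 difference of each gene (vertical axis) from the vehicle control of STHdhQ111 cells in the other 15 conditions (horizontal axis), with colour from -3 to 3. An asterisk marks an adjusted p-value under 0.05, which all 10 genes carry in DKI, meclizine, cyproheptadine, pizotifen and loxapine, and no gene carries in the last 7 columns.

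The 4 responding compounds given at 10 µM were compared with each other directly, in 6 pairs, without vehicle as the reference. The pairs came from the same fit to all 48 samples, so the vehicle samples still entered the day terms and the variance. Cyproheptadine and DKI form the closest pair in design, since their samples share collection days and times. In cyproheptadine 6 members were lower, where 14.7% of all genes were called lower and 28.6% in either direction. They were Ppp1r15a (-1.03, 95% interval -1.27 to -0.78), Ddit3 (-0.95, -1.20 to -0.70), Trib3 (-0.85, -1.27 to -0.43), Cebpb (-0.71, -0.97 to -0.45), Atf3 (-0.41, -0.69 to -0.14) and Sesn2 (-0.33, -0.52 to -0.13). Atf4 was not called, at -0.02 with an interval from -0.20 to 0.16. Nor were Atf5 (-0.13, -0.36 to 0.11), Chac1 (-0.17, -0.45 to 0.12) and Ifrd1 (0.12, -0.13 to 0.37). Ppp1r15a and Ddit3 were thus at 0.491 and 0.517 of their DKI level in cyproheptadine cells, where Atf4 was at 0.984 of it. Atf3 was not called without cyproheptadine replicate 1 (adjusted p = 0.081), DKI replicate 1 (0.16) or DKI replicate 3 (0.064), and Sesn2 was not called without cyproheptadine replicate 1 (0.092) or DKI replicate 1 (0.097).

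Cyproheptadine against meclizine gave 3 called members. Ddit3 (-0.60, -0.85 to -0.34) and Ppp1r15a (-0.40, -0.64 to -0.15) were lower in cyproheptadine, and Ifrd1 was higher (0.48, 0.22 to 0.73). Of all genes, 9.83% were called higher, 9.02% lower and 18.8% either way. Trib3 differed by -0.53 with an adjusted p-value of 0.073, and Atf4 by 0.09 (-0.09 to 0.28). The count of 3 depended on single samples, being 5 without meclizine replicate 2, 1 without meclizine replicate 3, 2 without meclizine replicate 1 and 2 without cyproheptadine replicate 1. The difference of Ddit3 ran from -0.75 to -0.46 over 14 alternatives, and it was not called in 1 of them, a fit to the samples compared alone (adjusted p = 0.052). Ppp1r15a was not called in 4 of the 14 (adjusted p up to 0.094) and Ifrd1 in 1 (adjusted p = 0.075).

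Meclizine was lower than DKI in Atf3 (-0.64, -0.92 to -0.35), Ppp1r15a (-0.63, -0.87 to -0.38) and Cebpb (-0.44, -0.70 to -0.18), where 4.30% of all genes were called lower and 8.11% either way. Ddit3 (-0.35), Ifrd1 (-0.36) and Chac1 (-0.33) did not pass the threshold (adjusted p = 0.078, 0.076 and 0.16). Atf5 differed by 0.03 (-0.20 to 0.27). Single DKI samples moved this count too, which was 7 without DKI replicate 2, 1 without DKI replicate 1, 2 without DKI replicate 3 and 2 without meclizine replicate 3. Cebpb was also not called without meclizine replicate 2 (adjusted p = 0.28).

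Loxapine was lower than DKI in all 10 members (18.6% of all genes lower, 37.0% either way), from -0.39 for Ifrd1 to -1.75 for Trib3. It was lower than meclizine in 8 (12.0% lower, 23.6% either way), the exceptions being Ifrd1 (-0.03, -0.28 to 0.22) and Cebpb (-0.30, adjusted p = 0.079). Cyproheptadine was higher than loxapine in 9 (4.91% higher, 10.5% either way), by 0.40 to 0.90, and only Cebpb was not called (0.04, -0.22 to 0.30). The call of Ddit3 in this last pair (0.40, adjusted p = 0.035) was lost under 6 of 14 alternatives, with adjusted p-values from 0.023 to 0.16 over them. Against meclizine, Chac1 was not called without meclizine replicate 1 (adjusted p = 0.069), nor Atf3 without meclizine replicate 3 (0.069) or loxapine replicate 3 (0.064). Ifrd1 against DKI was not called without DKI replicate 1 (0.12), and Atf5 against cyproheptadine was not called without cyproheptadine replicate 3 (0.06). Pizotifen, given at a lower dose than its relative cyproheptadine, is left out of these pairs.

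**Figure D3:**
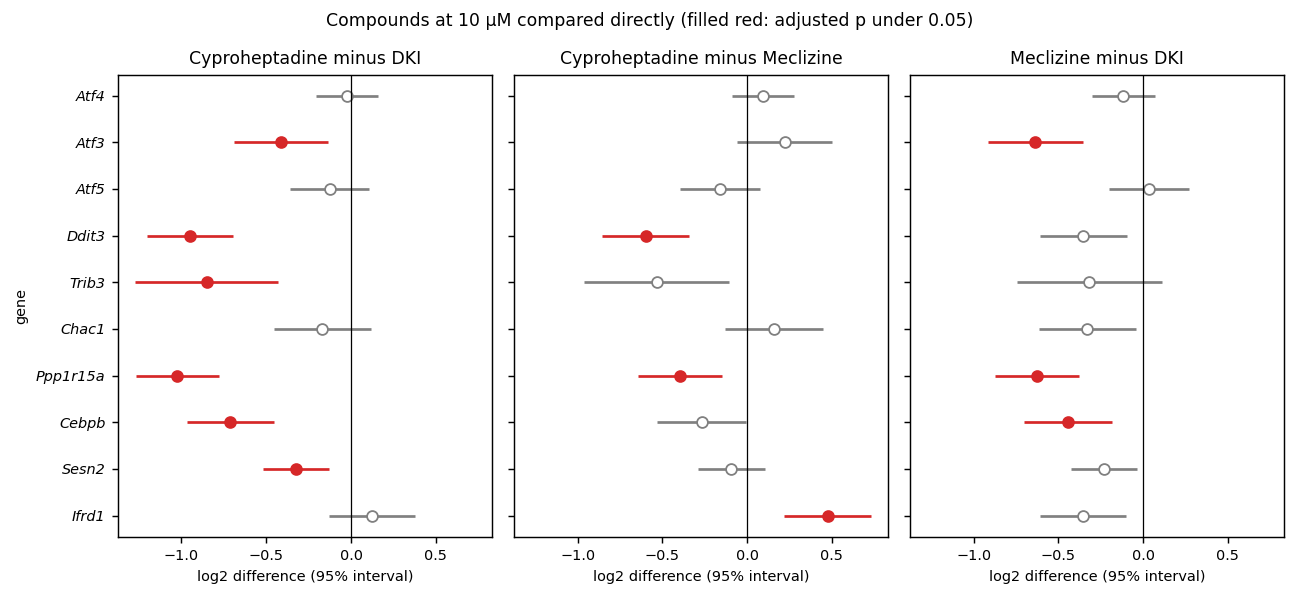
Log2 differences between compounds given at 10 µM for each of the 10 genes (vertical axis), with 95% intervals from limma, for cyproheptadine minus DKI, cyproheptadine minus meclizine and meclizine minus DKI. Filled red points have an adjusted p-value under 0.05, and the point of Atf4 lies within 0.12 of 0 in all 3 panels.

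The distance between Ddit3 and Atf4 within a sample put these differences on view. This pair of genes, like the other 5 pairs of members compared in this way, was chosen after the values had been seen. Since the values are not per length, only the change of this distance between conditions has a meaning. It was -1.82, -1.93 and -1.89 in vehicle. In DKI it was -1.33, -1.25 and -1.33, and in meclizine -1.32, -1.78 and -1.52, so that all 6 samples lay above vehicle. In cyproheptadine it was -2.34, -2.25 and -2.11, in loxapine -2.12, -2.19 and -2.17, and in pizotifen -2.02, -2.14 and -2.15, and these 9 samples lay below vehicle. So did the sodium butyrate samples, at -2.19, -2.01 and -2.07. DOP, in which neither gene was called, gave -1.60, -1.57 and -1.61, above vehicle. STHdhQ7 cells had the lowest mean, with -2.51, -2.37 and -2.30.

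Between cyproheptadine and DKI the distance differed by -0.93 and between loxapine and meclizine by -0.62, with no overlap in either case (exact permutation p = 0.1, two-sided, which is the smallest that 3 samples against 3 can give, and 0.144 after adjustment over 36 comparisons). The distance from Ifrd1 to Ddit3 split the same compounds by more. It averaged 1.21 in cyproheptadine, 1.10 in loxapine and 1.00 in pizotifen, but 0.14 in DKI and 0.14 in meclizine, beside 0.63 in vehicle. It was 0.13 in DOP, in which no member was called, and 0.89 in STHdhQ7 cells. In meclizine the 3 samples were far apart, at -0.22, 0.64 and -0.01, and replicate 2 lay within the vehicle range.

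**Figure D4:**
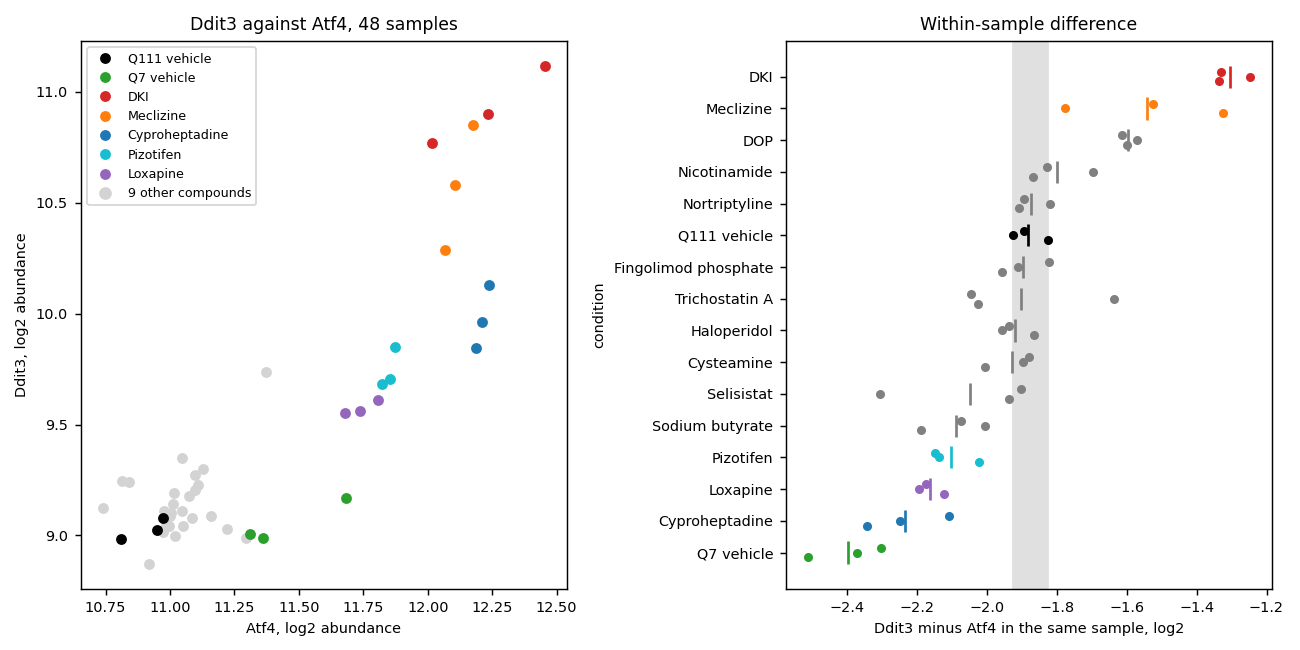
Left, Ddit3 against Atf4 (log2 abundance) in the 48 samples, coloured by condition; right, Ddit3 minus Atf4 within each sample (log2), with the conditions ordered by their mean (bars) and the vehicle range in grey. DKI, meclizine and DOP lie to the right of the grey band, and sodium butyrate, pizotifen, loxapine, cyproheptadine and STHdhQ7 cells to its left.

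STHdhQ7 cells, with wild type huntingtin, had higher levels than STHdhQ111 cells in 7 of the 10 genes (29.2% of all genes were called higher and 55.8% either way). Trib3 stood at 9.08, 8.61 and 8.59 in STHdhQ7 cells, 3.51-fold above the STHdhQ111 vehicle samples. Chac1 stood at 8.66, 8.36 and 8.37, or 2.33-fold higher. Sesn2 (0.78), Cebpb (0.61), Atf5 (0.55), Atf4 (0.54) and Atf3 (0.47) followed on the log2 scale. Ddit3 stood at 9.17, 8.99 and 9.01 and overlapped the STHdhQ111 samples, with a difference of 0.02 (95% interval -0.23 to 0.28). Ppp1r15a (0.22, -0.03 to 0.46) and Ifrd1 (0.28, 0.03 to 0.54, adjusted p = 0.051) were not called either. Ifrd1 rested on replicate 1, at 10.39 against 9.72 and 9.73. Without it the call of Atf3 was lost (adjusted p = 0.057). Replicate 1 was the highest of its group in 9 of the 10 genes, while it was the highest in 35.2% of all genes. Huntingtin genotype and cell line cannot be told apart here, and the lines differ in Nes and Sox2 as given above.

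Sodium butyrate raised 5 of the 10 (19.6% of all genes called higher, 37.5% either way). Atf3 was at 8.21, 8.27 and 8.10, all above vehicle and 2.04-fold higher. Cebpb (0.65), Trib3 (0.62), Chac1 (0.60) and Atf4 (0.23) were called as well. Ddit3 overlapped vehicle at 9.03, 9.04 and 9.09 (0.02, -0.23 to 0.28), and so did Ppp1r15a (0.07), Ifrd1 (0.02) and Sesn2 (-0.20, adjusted p = 0.1). Atf5 lay below vehicle at 8.36, 8.31 and 8.19, with a difference of -0.20 that was not called (adjusted p = 0.17). The count fell to 3 without butyrate replicate 1 or replicate 3, when Atf4 (adjusted p = 0.16 and 0.09) and Trib3 (0.072 and 0.062) were not called. It was 4 without any single vehicle sample.

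Trichostatin A, the other histone deacetylase inhibitor, had 2 called genes, Trib3 (0.61) and Atf3 (0.52), where 6.41% of all genes were called higher and 13.1% either way. Both overlapped vehicle. Trib3 was at 7.19, 8.51 and 6.98, and Atf3 at 7.76, 8.12 and 7.19. Replicate 2 was the highest of the 3 samples in all 10 genes, but in 32% of all genes. Such a sample was not particular to trichostatin A, since DKI replicate 1 was the highest in all 10 genes (36.9% of all genes), and loxapine replicate 2 (32.2%), cyproheptadine replicate 3 (31.9%) and fingolimod phosphate replicate 3 (40.9%) in 9. Ddit3 was at 9.74 in that sample against 9.00 and 8.87 in the others, and Ppp1r15a at 9.36 against 8.58 and 8.55. Without replicate 2 the difference of Trib3 was 0.11 (adjusted p = 0.74) and that of Atf3 was 0.29 (adjusted p = 0.17), and 1 member was called, Sesn2, which was lower (-0.32, adjusted p = 0.024). The count was also 0 or 1 without any single vehicle sample and without replicate 1, and 4 without replicate 3.

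For the other 7 compounds limma called none of the 10 genes. These were DOP (20.1% of all genes called), nicotinamide (10.4%), cysteamine (7.83%), nortriptyline (3.83%), selisistat (0.515%), fingolimod phosphate (0.0597%) and haloperidol (0%, though 397 of all genes had an unadjusted p-value under 0.05). Unadjusted p-values under 0.05 were found for 2 members in selisistat, for 1 each in DOP, nicotinamide and cysteamine, and for 0 in nortriptyline, fingolimod phosphate and haloperidol. Among all 13409 genes they were found for 2307 in selisistat, 4316 in DOP, 3542 in nicotinamide and 3082 in cysteamine. The counts of members were thus near or below the share over all genes. Selisistat, given at the same 10 µM and collected in the same slots as vehicle, had Atf4 at 11.05, 11.30 and 11.00, just above the vehicle samples (0.20, 95% interval 0.02 to 0.39, adjusted p = 0.23). Its Ddit3 samples were at 9.11, 8.99 and 9.10 (0.04, -0.22 to 0.29). Ifrd1 was the closest to a fall, at 9.21, 9.39 and 9.38 in DOP, all under the vehicle samples, with a difference of -0.33 and an adjusted p-value of 0.053. Cebpb was the closest to a rise, by 0.38 in cysteamine (adjusted p = 0.055).

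The labels give a collection day and a collection time from 1 to 3 for each sample, and the vehicle samples combined day and time in another way than those of most compounds. A reference from the same slots was made of low-dose compounds, haloperidol and fingolimod phosphate for 1 set and nicotinamide and nortriptyline for the other. Against vehicle these 4 compounds had 0%, 0.0597%, 10.4% and 3.83% of all genes called, in this order. Against the low-dose reference all 10 genes were still called higher in meclizine (1.48 for Ddit3), pizotifen (0.65) and loxapine (0.37). Of all genes, 28.8%, 17.3% and 22.8% were called either way there. Butyrate kept the calls of Atf3, Cebpb, Chac1 and Trib3, while Atf4 was at 0.10 (adjusted p = 0.37) and Sesn2 was called lower (-0.24, adjusted p = 0.028), with 30.8% of all genes called. In DOP Atf4 was called lower (-0.25, adjusted p = 0.034), with 10.6% of all genes called. In cysteamine no member was called and 0.119% of all genes were, beside 7.83% against vehicle. No low-dose compound shares all 3 slots of cyproheptadine and DKI, and their replicate 1 carries collection day 3 in place of day 1.

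The rest of the pathway was read from lists of genes given by their role. Of the 4 kinases that phosphorylate eIF2, none rose in DKI, where 21.9% of all genes were called lower. Eif2ak2 (PKR, -0.61), Eif2ak3 (PERK, -0.18) and Eif2ak4 (GCN2, -0.15) were lower there and Eif2ak1 (HRI) was at -0.03. The falls of Eif2ak3 and Eif2ak4 were not particular to DKI. In nicotinamide, at 0.5 nM, they were -0.21 and -0.20, both called, and Eif2ak3 was at -0.39 in DOP. Eif2ak2 was also lower in cyproheptadine (-0.53) and meclizine (-0.34), and the direct difference between cyproheptadine and DKI (0.08) was not called. Eif2ak3 was higher in cyproheptadine (0.32) and pizotifen (0.26), and the direct difference between cyproheptadine and DKI was 0.50. Of the 8 subunits of eIF2 and of its exchange factor eIF2B, 5 rose in cyproheptadine and 4 each in DKI and meclizine, with none lower. The shares of all genes called higher were 17.5%, 20.4% and 13.1% in this order. Eif2s2 was the largest in all 3 compounds, at 0.60, 0.83 and 0.66. Ppp1r15b, the constitutive counterpart of Ppp1r15a, rose by 0.38 in DKI and 0.24 in cyproheptadine, and the direct difference of -0.14 was not called.

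Genes that ATF4 is known to raise, most of them of amino acid supply, were read as a list of 16. Cebpg, a bZIP factor, and Vldlr, a lipoprotein receptor, are among them. All 16 rose in DKI, meclizine, cyproheptadine and pizotifen, and 15 in loxapine, with medians of 1.51, 1.19, 1.03, 0.63 and 0.49. In the same order 20.4%, 13.1%, 17.5%, 8.86% and 10.1% of all genes were called higher. In STHdhQ7 cells 14 were higher (median 0.74, 29.2% of all genes higher). In butyrate and trichostatin A 3 each were higher, where 19.6% and 6.41% of all genes were. The count in butyrate was thus no more than the share over all genes. Slc7a11, the cystine transporter, rose by 3.09 in DKI, 2.51 in meclizine and 2.16 in cyproheptadine. Asns, which makes asparagine, rose by 1.65, 1.44 and 1.36. Between cyproheptadine and DKI 13 of the 16 were lower in cyproheptadine (median -0.39, median of all genes -0.01), where 14.7% of all genes were. Slc3a2 (-1.34), Cth (-1.09), Slc7a11 (-0.93) and Slc6a9 (-0.93) led them. Psat1, of serine synthesis, was at 0.06 in this pair, Vldlr at -0.17 and Mthfd2 at -0.27, and these were not called.

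Genes of the other arms of the unfolded protein response, under ATF6 and XBP1, were ordered differently. Of 14, cyproheptadine raised 12 (median 0.50), loxapine and pizotifen 11 each (0.26 and 0.28), and DKI and meclizine 8 each (0.21 and 0.19), none being lower. The shares of all genes called higher were 17.5%, 10.1%, 8.86%, 20.4% and 13.1% in this order. STHdhQ7 cells also had 12 higher, with 1 lower and a median of 0.525 (29.2% of all genes higher). Directly compared, 7 were higher and 1 lower in cyproheptadine than in DKI (median 0.20, 28.6% of all genes called either way). Against meclizine 9 were higher and 0 lower in cyproheptadine (median 0.27, 9.83% of all genes higher). Calr (0.61), Xbp1 (0.40), Hsp90b1 (0.37) and Pdia6 (0.35) led the former set, and Hyou1 was the lower one (-0.26). Hspa5, the chaperone BiP, rose in both, by 0.93 in cyproheptadine and 1.01 in DKI, with a difference of -0.08 that was not called.

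**Figure D5:**
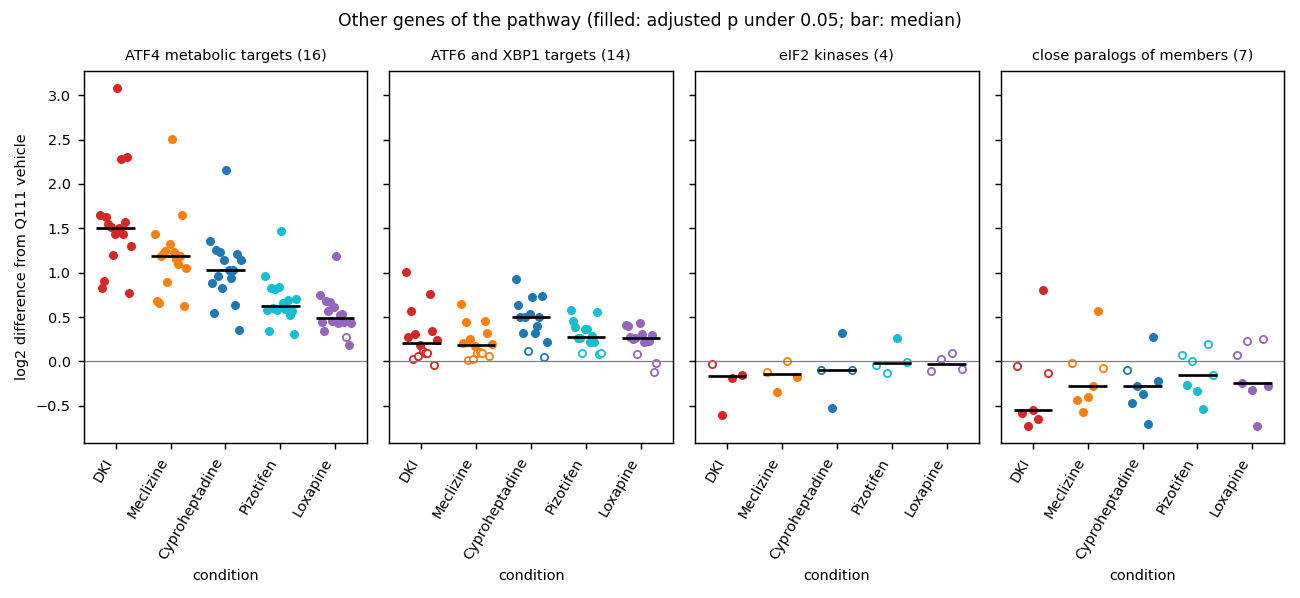
Log2 difference from vehicle (vertical axis) of each gene of 4 lists in DKI, meclizine, cyproheptadine, pizotifen and loxapine, with filled points for adjusted p-values under 0.05 and a bar at the median. The bars of the 16 ATF4 metabolic targets fall from 1.51 in DKI to 0.49 in loxapine, and that of the 14 ATF6 and XBP1 targets is highest in cyproheptadine at 0.50.

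Genes described as CHOP targets did not move as a group. Of 6 tested, members aside, 4 rose and 1 fell in cyproheptadine and 3 rose and 2 fell in DKI. Of all genes, 35.6% and 42.3% were called either way in these 2 compounds. Ero1l, an oxidase of disulfide formation, rose by 1.11 in DKI, 1.10 in meclizine and 1.02 in cyproheptadine. Car6, a carbonic anhydrase, rose by 1.70 in DKI and 1.63 in meclizine, but by 0.51 in cyproheptadine, which was 1.19 below DKI in the direct comparison. Bcl2l11, which encodes the death factor BIM, fell by 0.49 in DKI and by 0.59 in cyproheptadine.

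The close relatives of the members were also read as a list. Trib1 and Trib2 fell by 0.58 and 0.73 in DKI, where Trib3 rose by 3.00. Sesn1 and Sesn3 fell by 0.54 and 0.65, where Sesn2 rose by 1.09. Ifrd2 rose, by 0.80. In all, 4 of 7 relatives were lower and 1 was higher in DKI, where 21.9% of all genes were called lower, and 5 were lower and 1 higher in cyproheptadine, where 18.2% were. Sesn1 and Sesn2 are also targets of p53, and of 9 p53 targets, Sesn1 included, 5 were lower in butyrate and 4 in trichostatin A, with none higher, where 17.8% and 6.68% of all genes were called lower. In some other conditions more were higher than lower, with 4 higher and 1 lower in DKI, 3 and 1 in cyproheptadine, 6 and 2 in STHdhQ7 cells, and 4 and 0 in cysteamine. The shares of all genes called either way there were 42.3%, 35.6%, 55.8% and 7.83%. The p53 targets were not read against compounds of the same slots, where cysteamine had 0.119% of all genes called. Ccng1 (-0.78) and Eda2r (-0.96) were the lowest of the p53 targets in butyrate.

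Of 11 tested bZIP factors that pair with the members, 5 were higher and 1 lower in DKI, and 4 and 2 in meclizine. In cyproheptadine 5 were higher and in loxapine 4, with none lower. Of all genes, 42.3%, 26.8%, 35.6% and 21.9% were called either way in this order. Cebpg rose by 0.78 in DKI, 0.62 in meclizine, 0.35 in cyproheptadine and 0.18 in loxapine. Fosl1 rose by 1.01, 0.44, 1.04 and 1.11 in these compounds. Jun was higher in cyproheptadine (0.71) and in loxapine (0.49), was not called in DKI (0.20) or meclizine (-0.09), and was 0.52 higher in cyproheptadine than in DKI. Among secreted products and other late targets all 9 tested rose in DKI, meclizine and cyproheptadine (20.4%, 13.1% and 17.5% of all genes higher). Gdf15, a stress hormone, rose by 1.63, 1.10 and 0.80, and Stc2, a secreted glycoprotein, by 2.07, 1.45 and 0.90. Both were lower in cyproheptadine than in DKI (-0.84 and -1.17), whereas Vegfa was not called there (0.12).

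Across the 16 condition means, with collection day removed, Pearson's r between members ran from 0.758 (Cebpb and Ifrd1) to 0.980 (Atf4 and Chac1), with a median of 0.887 over 45 pairs. These points share the vehicle-treated and low-dose samples at the low end. Ddit3 and Ppp1r15a had an r of 0.972 but a Spearman's rho of 0.579. Among 4249 genes outside the lists, Ddit3 was most like Utp14a (r = 0.970) and Tma16 (0.967), and Ppp1r15a most like Acot2 (0.982) and Dnaja3 (0.982). Atf4 was most like Bcat1 (0.981) and Siah2 (0.976), and Bcat1 was also first for Ifrd1 (0.973), before Tmem199 (0.973). Trib3 was most like Aldh1l2 (0.987) and Sars (0.986), and Chac1 most like Cars (0.978) and Klf9 (0.972). For the remaining members the first genes were Sephs2 for Atf3 (0.965), Hk2 for Atf5 (0.978), Comtd1 for Cebpb (0.925) and Trmt61a for Sesn2 (0.977), and the second ones Arl14ep (0.962), Dhps (0.972), Nop56 (0.921) and Mthfd1l (0.967).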

How the data were processed

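RNA-Seq of 48 samples (poly(A) selection, a directional kit, single-end reads) was analysed. Per the paper's methods and the labels, Trimmomatic 0.36 was used by the authors for trimming, then RSEM for quantification on the GRCm38.p5 transcriptome, and DESeq2 with a batch term for collection day for testing. The deposited table holds 1 normalized log2 value per gene and sample. Its transformation is not given in the sources used here, but genes at the bottom of the table hardly vary (median SD 0.00511 below a mean of 0, 0.144 above a mean of 6), so differences of low genes are understated. It holds no counts, depth is unknown, and DESeq2 was not rerun here.

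Genes with a symbol and a mean of at least 1 (13409 of 18178) were fitted with limma 3.58.1 in R 4.3.3, with 16 conditions and collection day as terms, 30 residual degrees of freedom and a trended variance. Two-sided p-values were adjusted by the Benjamini-Hochberg method over all genes tested in each comparison, and 0.05 was the threshold. The procedure was tested on simulated data with independent noise and no effects of day or slot, so that test says nothing about such effects. Labels tie replicates to collection days, and day served as the block because the paper's methods used it. The mean residual correlation between conditions was -0.055 on the same day and 0.0279 on other days. Samples of the same day were thus not more alike by this measure.

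The members, lists and tests were chosen with earlier results of these data known. Named genes are the members, list genes with a called difference over 0.5 in 3 or more comparisons or named with the kinases, relatives and ATF6 and XBP1 targets, and the 2 most similar genes per member (mean at least 4, SD of condition means at least 0.15). Ppp1r15b, Bcl2l11, Ccng1 and Eda2r were added after their values were seen. Positions are from GENCODE and upstream sequences from RefSeq, both on GRCm38.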

Additional observations from a re-analysis of the deposited data

How the results depend on the processing

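The counts of called members in DKI, meclizine and cyproheptadine stayed at 10 under every alternative run (minimum means of 4 or none, no day term, day and time, a replicate block, no variance trend, only the samples compared, equal sample medians, and each replicate left out). Loxapine had 8 to 10, pizotifen 9 to 10 and STHdhQ7 cells 6 to 8. With the replicate block in place of collection day no count changed (7 in STHdhQ7 cells, 5 in butyrate, 2 in trichostatin A). No difference changed sign while called. Of the values of single genes under alternatives, 2863 kept their call or moved little, 52 moved, 31 passed the threshold newly and 64 no longer passed it. The count in DOP was 1 with a minimum mean of 4, without collection day, with only the samples compared and against compounds of the same slots. In trichostatin A it was 1 with no minimum mean, with collection time added, without the variance trend and against compounds of the same slots, 0 with only the samples compared, and 0 to 4 with single replicates left out. Nicotinamide had 2 and cysteamine 2 with only the samples compared, cysteamine 1 with a minimum mean of 4 and 1 without collection day, and both had 0 to 1 with replicates left out. Leaving out replicates gave 3 to 5 in butyrate, 1 to 5 between cyproheptadine and meclizine and 1 to 7 between meclizine and DKI, and both of these pairs had 1 with only the samples compared. Why the counts moved was not tested. Depth is unknown, so no limit from it can be given.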
